A study of Mus musculus with 6 samples.

Results

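Mitf and 9 core pigmentation genes, Tyr, Tyrp1, Dct, Pmel, Mlana, Slc45a2, Oca2, Gpr143 and Trpm1, were followed in 4434 cells, a Braf-mutant mouse melanoma line. They were chosen by gene symbol, and every probe set with exactly 1 of these symbols in the array annotation was taken, which were 19 of 34945 such probe sets and 10 of 18193 genes. All cells, − dox and + dox alike, carried a lentiviral vector with murine Oct4, Sox2, Klf4 and a blasticidin resistance gene under a doxycycline-responsive element, and a second vector with a constitutively expressed transactivator coupled to mCherry. The 3 + dox arrays were made from cells given doxycycline, which the methods describe as selected with blasticidin, and the 3 − dox arrays from cells kept in medium without doxycycline, all at day 20. Doxycycline, selection and the reprogramming factors therefore cannot be told apart in these arrays, and both groups came from 1 cell line. The study also gave doxycycline to parental cells and followed markers by quantitative PCR, but such cells are not among these arrays. That the 3 arrays of each group stand for separate cultures is not stated, and the p-values then rest on a spread between arrays that may be technical alone.

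Mitf is the transcription factor that specifies the melanocyte lineage, and it binds short E-box sequences in the promoters of the genes for melanin synthesis. Tyr, Tyrp1 and Dct encode the melanin-forming enzymes of the melanosome, the organelle in which pigment is made. Pmel forms the fibrils on which melanin is laid down, Mlana encodes a melanosomal membrane protein, Slc45a2 and Oca2 encode transporters that set the melanosome's internal milieu, Gpr143 a melanosomal receptor, and Trpm1 a cation channel of pigment cells. Loss of this programme is a known feature of de-differentiated melanoma, and the study followed Mitf and Pmel as markers of melanocytic differentiation. By quantitative PCR it reported a significant decrease of both in + dox cells of this line at day 20, a different measure from the array values below. Beside this it cited a western blot of MITF protein in + dox and − dox cells of this line, also at day 20. Protein was not measured on these arrays.

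Values are log2 RMA values, in which 1 unit is a 2-fold difference in hybridisation signal. Array − dox 1 stood apart from the other − dox arrays on the second principal component over all genes (20.0% of the variance, at 40.7 against −19.1 and −19.3), and + dox 1 lay nearest to the − dox arrays on the first (63.2%). The melanocyte lineage was checked with 7 measured marker genes that are not pigment genes. Sox10 and Pax3, the lineage's transcription factors, and Mcam and Erbb3, a melanoma adhesion molecule and a neural crest receptor, were above the silent reference described next in all 6 arrays. Kit, Ednrb and S100b, which also mark melanocytes, were above it in 0 of 6. The Sox10 values (6.12 to 6.46) overlapped those of 2 genes restricted to other tissues, insulin Ins2 (6.11 to 6.33) and protamine Prm1 (6.33 to 6.56). Sox10 expression therefore cannot be read from its place above the reference.

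Which pigment genes were expressed at all in − dox cells was asked of each array. RMA values carry no detection call, so each value was set against the 95th percentile of 44 probe sets of 39 olfactory receptor genes on the same array, odorant receptors that are mostly silent outside the nose. This silent reference lay between 4.91 and 5.08 in the − dox arrays and between 4.96 and 5.13 in the + dox arrays. Probe sets differ in their own background, so the position of a probe set against the reference is a description and levels of different genes were not ranked. Lying above it is not proof of expression. Of 31 measured genes restricted to other tissues, 9 (29.0%) were above it in all 3 − dox arrays, among them the insulin gene Ins2 at 6.14 to 6.23 and the protamine gene Prm1 at 6.33 to 6.56. Of the 10 genes, 2 were above the reference in all 3 − dox arrays, Mitf and Pmel, where 63.9% of all genes were. The same 2 genes were above it in all 3 + dox arrays, against 63.5% of all genes. Of the 19 probe sets, 15 were below the reference in every one of the 6 arrays.

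**Figure D1:**
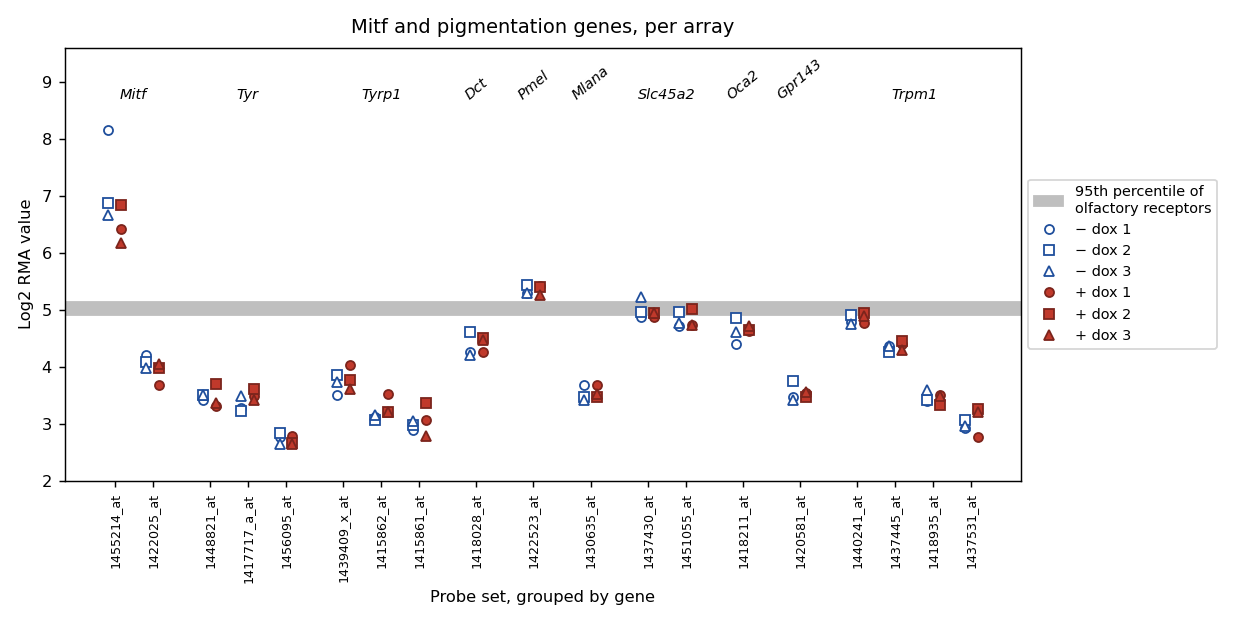
Log2 RMA value (vertical axis) of the 19 probe sets of Mitf and the 9 pigmentation genes (horizontal axis, grouped by gene) in each array; open blue symbols are − dox and filled red symbols + dox arrays, and the grey band spans the silent reference of the 6 arrays (4.91 to 5.13). A single Mitf probe set stands clear of the band, Pmel lies just above it, and the enzyme genes lie below it in both groups.

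Mitf had 2 probe sets, which differed in level. The brighter one stood at 8.15, 6.87 and 6.67 in − dox arrays 1, 2 and 3 and at 6.41, 6.83 and 6.17 in + dox arrays 1, 2 and 3. All 6 values were above the reference, − dox 1 was the highest, and the groups overlapped, since + dox 2 lay above − dox 3. In + dox arrays the values overlapped those of Prm1 (6.33 to 6.44) and Ins2 (6.11 to 6.33), so their place above the reference is no proof of expression. The casein gene Csn3 (9.30, 8.36 and 7.70) and the titin gene Ttn (9.72, 9.09 and 10.94) stood above Mitf in − dox arrays 1, 2 and 3. Both are on the list of genes restricted to other tissues, so the − dox values of Mitf are no proof either. The mean of this Mitf probe set was 7.23 ± 0.80 (SD, n = 3) in − dox and 6.47 ± 0.33 (SD, n = 3) in + dox cells. The change was −0.76 (SE 0.40, 95% interval −1.72 to 0.20, limma adjusted p = 0.343), which did not pass the test. Its size depended on − dox 1, without which it was −0.30 (interval −0.80 to 0.20, adjusted p = 0.446). Without − dox 3 it was −1.04 with an interval below 0 (−2.06 to −0.02), but the adjusted p was 0.299. Without both arrays numbered 1 it was −0.27. The other Mitf probe set stood at 4.21, 4.09 and 3.97 in − dox and 3.67, 3.97 and 4.04 in + dox arrays. It was below the reference in all 6 arrays and had a change of −0.20 (interval −0.51 to 0.12). Which Mitf transcripts each probe set covers was not analysed here. In RNA from whole cultures, fewer Mitf-expressing cells and less Mitf RNA per cell cannot be told apart.

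Several promoters drive Mitf, and the melanocyte form starts from the promoter furthest downstream, where Creb1, Sox10, Pax3 and Lef1 are known to act. RefSeq (GRCm38.p6) lists 3 start sites of Mitf in its promoter table, and of these the furthest downstream holds a cyclic AMP response element (TGACGTCA, the same on both strands) in the 250 bases before it, beginning 153 bases upstream. That element is in 1.55% of 32851 such windows of all promoters. The window is shown because it is the promoter on which the regulators described below are known to meet, with the element in capitals.

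Mitf, chr6:97991533-97991782, plus strand: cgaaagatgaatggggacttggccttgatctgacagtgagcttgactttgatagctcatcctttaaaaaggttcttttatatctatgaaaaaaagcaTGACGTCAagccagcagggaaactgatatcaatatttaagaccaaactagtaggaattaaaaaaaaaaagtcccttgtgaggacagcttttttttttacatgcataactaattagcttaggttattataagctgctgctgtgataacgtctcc

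The melanin-forming enzymes were at the level of silent genes in both groups. Tyr, the rate-limiting enzyme of melanin synthesis, stood at 3.42, 3.51 and 3.50 in − dox and at 3.31, 3.69 and 3.36 in + dox arrays in its brightest probe set. These values overlapped and were more than 1 unit below the reference (change −0.02, interval −0.32 to 0.28). Its other 2 probe sets lay between 2.64 and 3.61. Tyrp1, an enzyme that stabilises Tyr and shapes eumelanin, stood at 3.50, 3.85 and 3.73 in − dox and at 4.03, 3.76 and 3.61 in + dox arrays (change 0.11, interval −0.25 to 0.46). That probe set is of a design that can bind related transcripts, and the other 2 of Tyrp1 were lower, between 2.79 and 3.52. In 1 of these the groups did not overlap, with 3.12, 3.06 and 3.15 in − dox against 3.52, 3.20 and 3.21 in + dox arrays, a difference of 0.20 (adjusted p = 0.410) at the low end of the scale. Dct, the dopachrome tautomerase, stood at 4.25, 4.61 and 4.21 in − dox and at 4.26, 4.51 and 4.47 in + dox arrays (change 0.06, interval −0.28 to 0.40). It too was below the reference in every array.

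The promoters of Tyr, Tyrp1, Dct and Trpm1 each hold an M-box, the Mitf-binding E-box CATGTG with a T before it (TCATGTG, searched on both strands, so that each M-box also holds the E-box core). Promoter entries were found in RefSeq (GRCm38.p6) for 5 of the 9 pigmentation genes, Tyr, Tyrp1, Dct, Oca2 and Trpm1. Over the 250 bases before all 32851 start sites, an M-box is in 3.25% of windows and the core in 12.3%. The match begins 22 bases before the start of Tyr, 47 before that of Tyrp1 and 142 before the upstream start of Trpm1, and Dct has a pair, at 232 and 151 bases. Oca2 has the core without the T, 186 bases before its start. A match is only a run of letters, and binding was not measured here. The windows are printed because they are where Mitf is known to act on genes that lay below the reference here while Mitf lay above it, with the M-box (or its reverse, CACATGA) in capitals. For Tyrp1 the 30 bases around the match are given.

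Tyr, chr7:87493513-87493762, minus strand: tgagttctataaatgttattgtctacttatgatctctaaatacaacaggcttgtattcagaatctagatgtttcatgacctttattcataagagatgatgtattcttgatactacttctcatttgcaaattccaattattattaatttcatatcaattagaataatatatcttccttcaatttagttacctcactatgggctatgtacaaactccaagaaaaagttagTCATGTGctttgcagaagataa
Tyrp1, chr4:80834155-80834184, plus strand: tggggagggagTCATGTGctgcctagtagt
Dct, chr14:118052247-118052496, minus strand: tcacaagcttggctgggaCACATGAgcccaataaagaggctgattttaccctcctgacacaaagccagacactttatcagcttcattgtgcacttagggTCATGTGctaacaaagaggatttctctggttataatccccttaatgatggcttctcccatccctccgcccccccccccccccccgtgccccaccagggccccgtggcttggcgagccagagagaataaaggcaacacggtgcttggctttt
Trpm1, chr7:64153585-64153834, plus strand: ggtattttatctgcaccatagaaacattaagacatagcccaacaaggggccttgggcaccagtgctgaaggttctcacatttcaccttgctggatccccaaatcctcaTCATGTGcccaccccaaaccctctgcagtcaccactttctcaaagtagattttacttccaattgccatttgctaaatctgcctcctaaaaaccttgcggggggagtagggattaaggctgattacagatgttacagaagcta

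Of the melanosome's structural genes, Pmel was above the reference by a narrow margin, at a level that several genes of other tissues exceeded. It stood at 5.30, 5.43 and 5.30 in − dox and at 5.42, 5.40 and 5.25 in + dox arrays, near the median of all probe sets on each array (5.33 to 5.37). The 6 values spanned less than 0.2 units, the groups overlapped, and the change was 0.01 (SE 0.10, interval −0.22 to 0.25, adjusted p = 0.962). With the 99th percentile of the olfactory receptors as reference (5.38 to 5.50), or with the array median, Pmel was no longer above in all arrays of either group, and only Mitf of the 10 genes was. Mlana, which encodes the melanoma antigen Melan-A, was below the reference with 3.68, 3.47 and 3.41 in − dox and 3.68, 3.47 and 3.52 in + dox arrays (change 0.04, interval −0.24 to 0.31).

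The transporters, the receptor and the channel of the melanosome lay at or under the reference. Slc45a2, which helps to keep the melanosome's pH high, stood at 4.87, 4.96 and 5.23 in − dox and at 4.87, 4.95 and 4.95 in + dox arrays. Only − dox 3 was above its array's reference (4.91), and the change was −0.10 (interval −0.38 to 0.19). Its second probe set ran from 4.72 to 5.01, above the reference in + dox 2 alone. Oca2, an anion channel protein of melanosomes, stood at 4.40, 4.85 and 4.60 in − dox and at 4.62, 4.65 and 4.71 in + dox arrays (change 0.04, interval −0.27 to 0.36). Gpr143, the ocular albinism receptor, stood at 3.46, 3.75 and 3.41 in − dox and at 3.53, 3.47 and 3.55 in + dox arrays (change −0.02, interval −0.30 to 0.26). Trpm1 had 4 probe sets between 2.76 and 4.94, all below the reference in all 6 arrays. The brightest stood at 4.79, 4.90 and 4.75 in − dox and at 4.76, 4.94 and 4.89 in + dox arrays (change 0.05, interval −0.18 to 0.28). In none of these genes did the groups separate.

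Across the whole set, limma called 0 of the 10 genes and 0 of the 19 probe sets at an adjusted p of 0.05, where 4.87% of all genes and 3.65% of all probe sets with 1 gene were called. Before adjustment 0 of 10 genes and 0 of 19 probe sets had a p under 0.05, against 21.7% and 20.8%. The groups did not overlap in 0 of 10 genes, against 26.9% of all genes, and in 1 of 19 probe sets, against 25.8%. Dim genes give a second background. Of the 6104 genes whose mean over the 6 arrays was under the mean reference of 5.02, as were 8 of the 10 genes, 1.18% were called and 15.6% did not overlap. The median change of the 10 genes was 0.03, and that of all genes 0.01.

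The intervals set limits on the measured values. For the 9 genes other than Mitf changes ran from −0.10 to 0.11, and the 95% intervals together from −0.38 to 0.46, so that a 2-fold difference in signal either way lay outside each of them. For a probe set at the level of silent genes this bounds the signal and not the transcript, since a low level of RNA can be hidden in background hybridisation. For Mitf the interval reached beyond a 2-fold fall. Over the arrays SDs of the 9 genes lay between 0.04 and 0.23, beside a median of 0.15 in − dox and 0.14 in + dox cells over all genes.

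**Figure D2:**
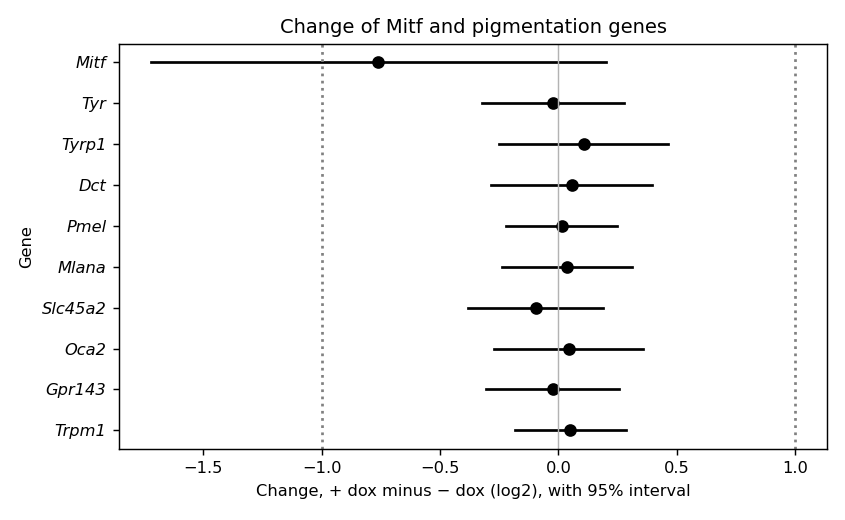
Change from − dox to + dox cells (horizontal axis, log2, points) with its 95% interval from limma (bars) for the 10 genes (vertical axis), each by its brightest probe set; dotted lines mark a 2-fold difference. The 9 pigmentation genes lie between −0.10 and 0.11 with intervals inside the dotted lines, and Mitf lies at −0.76 with an interval from −1.72 to 0.20.

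The pattern of Mitf over the 6 arrays was mostly that of − dox 1, which stood 1.38 above the mean of − dox 2 and 3. Such a difference or a larger one was found in 1.06% of all genes, and 534 genes stood more than 1 unit higher in − dox 1 than in the mean of the other − dox arrays. Over the 9094 other genes above the median mean level, the 8 with the highest Pearson correlation with Mitf were Tsc22d2, Qsox1, Fbxo31, Ptpra, Dcaf5, Frs3, Csnk1e and Trim45 (r from 0.991 to 0.998 over 6 arrays). Being chosen for likeness to Mitf, all 8 share its order of highest and lowest array, which supports nothing further. Tsc22d2, for example, stood at 11.13, 9.96 and 9.89 in − dox and 9.68, 10.03 and 9.45 in + dox arrays. None of the 8 was called. The 9 pigmentation genes had correlations with Mitf between −0.67 (Oca2) and 0.40 (Mlana) over the same 6 arrays, a description over few points of which most lie in background.

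**Figure D3:**
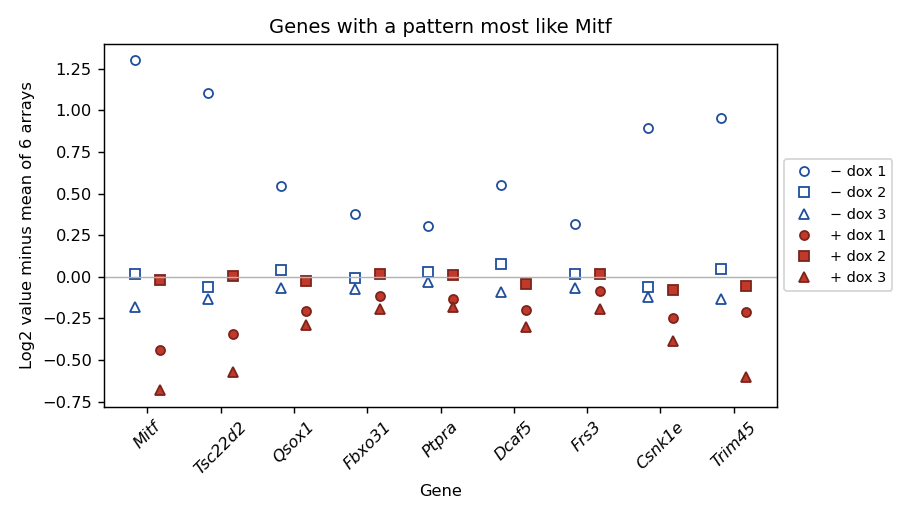
Log2 value minus the mean of the 6 arrays (vertical axis) for Mitf and the 8 genes with the highest correlation with it (horizontal axis), with open blue symbols for − dox and filled red symbols for + dox arrays. The genes were picked for this likeness, so the shared place of − dox 1 as highest and + dox 3 as lowest array follows from the choice.

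Regulators of Mitf were largely measured above the reference. Of 13 transcription factors that act on the Mitf promoter or beside Mitf, 10 were above it in all 3 − dox arrays and the same number in all 3 + dox arrays. Irf4, Tfap2c and Foxd3 were below it in all 6. Of the 13, 0 rose and 0 fell (3.07% and 1.8% of all genes did), 4 had an unadjusted p under 0.05 (21.7% of all genes), and the median change was −0.04. Sox10 stood at 6.12, 6.35 and 6.21 in − dox and 6.46, 6.26 and 6.30 in + dox arrays (change 0.11, interval −0.14 to 0.37), and its other 2 probe sets had the opposite sign. Pax3 stood at 8.72, 7.77 and 7.80 in − dox and 7.97, 8.34 and 8.02 in + dox arrays (change 0.01, interval −0.64 to 0.67), with − dox 1 again the highest. Both sets of values overlapped between the groups. Creb1, the factor that binds the cyclic AMP element, stood at 9.39, 9.20 and 9.33 in − dox and 9.06, 8.84 and 8.66 in + dox arrays (change −0.45, interval −0.76 to −0.14, adjusted p = 0.103). Lef1, the Wnt pathway factor, stood at 7.68, 7.70 and 7.95 in − dox and 7.62, 6.82 and 6.14 in + dox arrays (change −0.92, interval −1.76 to −0.08, adjusted p = 0.193). Their groups did not overlap, and neither passed the test. Zeb2, which helps to hold the melanocyte state, stood at 10.35, 9.57 and 9.45 in − dox and at 8.87, 9.06 and 8.42 in + dox arrays. Its groups did not overlap, and its change of −1.01 had an adjusted p of 0.0955. By probe sets, 3 of its 5 were called, all 5 had a negative sign, and with their mean the gene passed (−1.09, adjusted p = 0.0188), as it did without both arrays numbered 1 (−0.77, adjusted p = 0.0484). Tfap2a, an AP-2 factor that works with Mitf, had −0.72 (adjusted p = 0.0942) and passed without both arrays numbered 1 (−0.68, adjusted p = 0.00853).

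The paralogues of Mitf recognise the same E-boxes and govern lysosome genes. Tfe3 stood at 9.23, 9.09 and 9.04 in − dox and 9.26, 9.03 and 9.17 in + dox arrays, with a change of 0.03 (interval −0.22 to 0.29). Tfeb stood at 6.81, 6.67 and 6.85 in − dox and 7.43, 7.10 and 7.62 in + dox arrays. Its groups did not overlap, and its change of 0.61 (interval 0.25 to 0.97) missed the threshold with an adjusted p of 0.0741. Tfec, a paralogue of macrophages, lay between 2.71 and 3.18, below the reference in all arrays. None of the 3 was called.

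**Figure D4:**
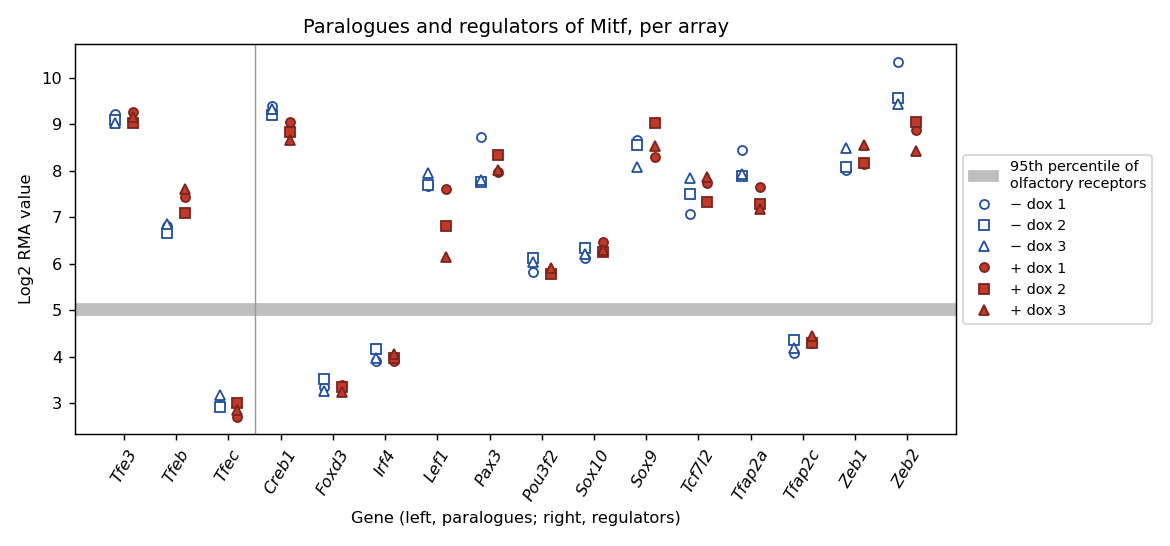
Log2 RMA value (vertical axis) of the 3 paralogues (left) and 13 regulators of Mitf (right) in each array, with open blue symbols for − dox and filled red symbols for + dox arrays and the silent reference as a grey band (4.91 to 5.13). Tfe3, Sox10 and Pax3 lie above the band in all 6 arrays, while Tfec, Irf4, Tfap2c and Foxd3 lie below it.

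Signalling to Mitf runs from the melanocortin receptor through cyclic AMP and from Kit and the endothelin receptor through kinases. Of 15 measured genes, 10 were above the reference in all − dox arrays, while the receptor genes Mc1r, Kit and Ednrb were below it in every array of both groups. Edn1, which encodes endothelin 1, rose from 4.83, 5.0 and 4.92 to 6.07, 5.92 and 6.59 (change 1.28, adjusted p = 0.0182), and the groups lay apart. It was the 1 gene of the list that was called, with 0 falls and a list median of −0.03. Leaving out either − dox 2 or − dox 3 ended the call, with adjusted p-values of up to 0.0873. The − dox values of Edn1 lay near the reference, above it in − dox 3 alone. An unadjusted p under 0.05 was found in 5 of 15 genes, against 21.7% of all genes. Besides Edn1, Kitl went up among these (1.22, limma adjusted p = 0.0821). Prkaca (−0.64), Gsk3b (−0.49) and Fzd4 (−0.53) went down, each without overlap and none of them called.

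Genes that Mitf is known to activate outside pigment synthesis moved in part. Of 17 measured, 3 rose and 0 fell, against 3.07% and 1.8% of all genes, and 14 were not called, with a median change of 0.04. An unadjusted p under 0.05 was found in 9 of 17, against 21.7% of all genes. Besides the 3 called, Cdkn1a went up among these, and Ppargc1a, Cdk5r1, Hif1a, Tbx2 and Met went down, each without overlap. Ppargc1a stood at 8.12, 6.60 and 7.30 in − dox and at 6.32, 4.65 and 4.21 in + dox arrays (change −2.28, limma adjusted p = 0.0901). Bcl2, the survival gene, stood at 6.12, 6.42 and 6.34 in − dox and at 8.27, 9.20 and 8.64 in + dox arrays. It rose by 2.41 (SE 0.24, 5.31-fold, limma adjusted p = 0.00624), all 5 of its probe sets were positive, and the call held whichever array was left out. Birc7, which encodes the melanoma inhibitor of apoptosis, stood at 5.54, 5.75 and 5.59 in − dox and at 8.16, 6.86 and 7.33 in + dox arrays, a rise of 1.82 (adjusted p = 0.0300). The groups lay apart in both genes, and the Birc7 call ended when − dox 2, − dox 3 or + dox 3 was left out, with adjusted p-values of up to 0.123. Diaph1, an actin-nucleating formin, rose by 1.10 (adjusted p = 0.0446), a call lost without any array but + dox 1 (up to 0.159) and with the mean of its 3 probe sets (0.94, adjusted p = 0.120). These 3 genes also have regulators other than Mitf.

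Genes for building and moving melanosomes, most of which serve lysosomes in other cells too, were mostly above the reference. Of 27 measured, 22 were above it in all − dox arrays and 23 in all + dox arrays, and those below it in all 6 arrays included Rab27a and Mlph, which tether melanosomes to actin. None rose and 3 fell, where 3.07% of all genes rose and 1.8% fell. An unadjusted p under 0.05 was found in 9 of 27, against 21.7% of all genes, and the median change was 0.03. Besides the 3 that fell, Sytl2 and Bloc1s6 went down among these, and Rab32, Hps6, Dtnbp1 and Tpcn2 went up, none of them called. Rab32 stood at 3.67, 3.66 and 3.29 in − dox and at 4.14, 6.72 and 7.65 in + dox arrays (change 2.63, limma adjusted p = 0.129). Sytl2 changed by −2.12 (adjusted p = 0.100). Gpnmb, a glycoprotein related to Pmel, stood at 10.58, 9.51 and 9.45 in − dox and 7.76, 7.16 and 6.75 in + dox arrays (6.16-fold lower, adjusted p = 0.0185), with both of its probe sets called. Bace2, the protease that processes Pmel, stood at 7.75, 8.65 and 8.35 in − dox and 6.92, 7.23 and 7.17 in + dox arrays (adjusted p = 0.0473). Ap1s2, a sorting adaptor subunit, went from between 9.98 and 10.35 to between 9.43 and 9.53 (adjusted p = 0.0300), with 1 of its 6 probe sets of opposite sign. The groups lay apart in all 3. Each call depended on arrays 2 and 3 of both groups, any of which ended it when left out, and that of Bace2 on + dox 1 too. The adjusted p then reached 0.0891 for Gpnmb, 0.164 for Bace2 and 0.125 for Ap1s2, and by probe sets 0 of the 5 of Bace2 were called.

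Genes that are high in melanoma cells with little Mitf, among them receptor and matrix genes, moved both ways. Of 15 measured, 12 were above the reference in all − dox arrays and 12 in all + dox arrays. Of the 15, 2 rose and 2 fell, again against 3.07% and 1.8% of all genes, with a median change of 0.04. An unadjusted p under 0.05 was found in 5 of 15, against 21.7% of all genes. Besides those called, Nt5e went down among these, from 8.93, 8.07 and 7.46 to 7.31, 5.09 and 3.64 (change −2.81, limma adjusted p = 0.134). Tead4, a Hippo pathway factor, stood between 5.64 and 6.10 in − dox and between 8.23 and 8.50 in + dox arrays, a 6.01-fold rise (adjusted p = 0.000864) that was called whichever array was left out. Nrg1, an ErbB ligand, rose 3.43-fold (adjusted p = 0.0202). Fgfr1, a growth factor receptor, stood at 9.96, 9.58 and 9.51 in − dox and 8.66, 8.38 and 8.21 in + dox arrays, a change of −1.27 (adjusted p = 0.0158), and all 3 of its probe sets were called. Tnc, a matrix protein, fell by 1.68 (adjusted p = 0.0166). Leaving out − dox 2, − dox 3 or + dox 2 ended the calls of Nrg1, Fgfr1 and Tnc, and leaving out + dox 3 those of the last pair, at adjusted p-values of up to 0.0937, 0.0781 and 0.0809. Of the 7 lineage markers that are not pigment genes, 0 rose and Mcam fell by 1.75 (adjusted p = 0.0378), lost without any array but + dox 1 (up to 0.144). The median change of these markers was 0.11. Erbb3 went the other way without being called, from 7.54, 6.57 and 6.73 to 8.44, 7.61 and 7.95 (change 1.05, adjusted p = 0.113). S100b (0.25) and Kit (0.23) also went up without overlap, at values below the reference.

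**Figure D5:**
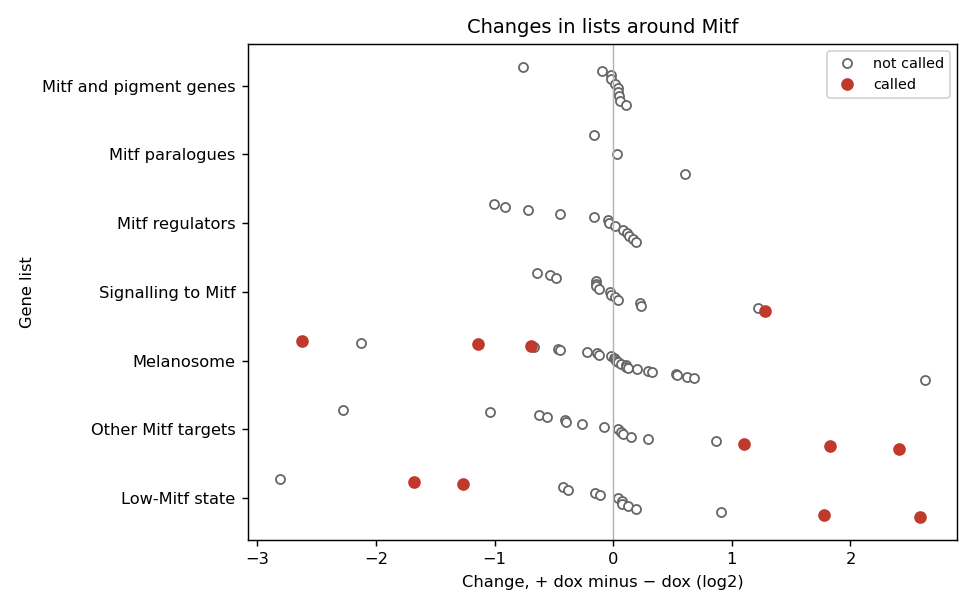
Change from − dox to + dox cells (horizontal axis, log2) of each gene in 7 lists around Mitf (vertical axis); red points passed limma's test over all genes (adjusted p under 0.05) and open points did not. Called genes appear in 4 of the 7 lists, and the list of Mitf and pigmentation genes has none.

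Markers of other cell types were read in the same way, and their part in the values above was not tested. Of 8 fibroblast genes 0 were called. Col1a1, Col1a2, Lum and Thy1 were below the reference in all arrays, and Col3a1, Dcn and Postn (5.05 to 6.20) above it in all. The summed level of the list ran from 10.06 to 10.82 in − dox and from 9.27 to 9.98 in + dox arrays on the log2 scale. Unlogged values were summed, so the brightest gene weighs most. Here that was Col3a1 (9.68 to 10.60 in − dox, 8.14 to 9.51 in + dox arrays), and the median change of the list was 0.02. Dcn, a matrix proteoglycan, stood at 6.36, 6.78 and 6.68 in − dox and 7.13, 7.55 and 7.68 in + dox arrays (change 0.85, adjusted p = 0.0525). It passed with the 20% and 40% filters (adjusted p = 0.0498 and 0.0470) and once + dox 1 (0.0191) or both arrays numbered 1 (0.00377) were left out. Col3a1, a fibrillar collagen, changed by −1.35 (adjusted p = 0.102) and passed once + dox 1 (−1.69, adjusted p = 0.0375) or both arrays numbered 1 (−1.94, adjusted p = 0.00319) were left out.

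Of 7 keratinocyte genes Krt14 rose by 3.67 (adjusted p = 0.00173, with 1 of its 3 probe sets of opposite sign), while Krt5, its usual partner, and Krt1, Krt15, Trp63 and Col17a1 were below the reference in all 6 arrays. Krt10 was above the reference in all 6 arrays (5.46 to 6.48) and changed by 0.55 (adjusted p = 0.322). The summed level ran from 7.32 to 7.64 in − dox and from 8.62 to 9.27 in + dox arrays, and the median change of the list was 0.07. Krt14 was the brightest of the list in + dox arrays (7.68 to 8.77) and weighed most in that sum. Of 7 immune genes 0 were called, and 4 were above the reference in all − dox arrays, Cd3e, Cd74, Csf1r and Lyz2. Ptprc, the common leukocyte antigen, was below it throughout. Cd68 stood at 7.14, 4.91 and 4.82 in − dox and at 6.40, 7.06 and 7.12 in + dox arrays (change 1.24, adjusted p = 0.323). Cd74 changed by −0.50 (adjusted p = 0.106), and Itgam by 1.17 (adjusted p = 0.301) with + dox 3 at 5.84, or by 0.47 without that array. The summed immune level overlapped between the groups, lying at 8.04 to 8.59 without doxycycline and 8.23 to 8.64 with it.

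Of 6 endothelial genes 0 were called, and the summed level ran from 6.85 to 7.22 in − dox and from 7.31 to 7.94 in + dox arrays. Tek in + dox 1 (7.01) and Kdr in + dox 2 and 3 (6.42 and 6.06) weighed most in the + dox sums. The median change of the list was 0.26. Tek, an angiopoietin receptor, stood at 3.87, 3.80 and 3.58 in − dox and at 7.01, 4.58 and 4.49 in + dox arrays (change 1.61, adjusted p = 0.219). Without + dox 1 its change was 0.79 and passed (adjusted p = 0.0222), as it did without both arrays numbered 1 (0.85, adjusted p = 0.00593), and + dox 2 and 3 lay under the reference. Tie1 changed by 0.32 (0.18 without + dox 2), and Tie1, Pecam1 and Emcn were below the reference in all arrays. Kdr was above it in all arrays (5.62 to 6.42), with a change of 0.21. Of 4 glial genes Mbp fell by 0.91 (adjusted p = 0.0461, lost without any array but + dox 1, up to 0.165). With the mean of its 8 probe sets it had −0.28 (adjusted p = 0.142), and by probe sets 0 of the 8 were called. Gfap (0.19), Mog (0.25) and Cnp (−0.10) were not called, and the median change of the list was 0.05. Mbp, Cnp and Gfap were above the reference in all arrays and Mog below it. Of 6 genes of the retinal pigment epithelium, the other pigmented cell type, 0 were called. Best1 was above the reference in all 6 arrays (5.78 to 6.10), and Rpe65, Lrat (−0.07), Otx2, Rgr and Rlbp1 were below it in every array. Rpe65 changed by 0.47 (adjusted p = 0.0598) and passed with trend and robust settings of eBayes (0.0426) and without both arrays numbered 1 (0.0391).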

How the data were processed

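Total RNA of 6 samples was hybridised to Affymetrix mouse arrays. The deposited values are log2 expression values, for which the authors ran RMA in Chipster on the array scans, so that arrays were background-corrected, quantile-normalised and summarised by probe set. Sources used here did not give the version of Chipster or the chip definition. The log2 scale was read from the values (2.08 to 14.44). RMA does not remove all non-specific signal, so unexpressed genes keep a low value. Of 45101 probe sets, 34945 had 1 gene in the platform annotation of 2016; those with several genes or none and array controls were left out. A gene took the values of its brightest probe set, judged by the mean of all 6 arrays. Groups came from the sample titles. The tests were those of limma 3.58.1, run in R 4.3.3 (lmFit and eBayes, two-sided, Benjamini-Hochberg over all genes or all probe sets, threshold 0.05). Changes are + dox minus − dox. The number of arrays limits the precision. The fit was tested on simulated data.

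The genes, lists and tests were chosen with earlier results of these data known. From each list the text names at most 4 called genes, those of largest change, or the 2 of smallest p where 0 were called; Mitf's paralogues, Sox10 and Pax3 in any case; and the 8 genes most like Mitf. Creb1, Lef1 and genes named only for their place above or below the reference were chosen after their values were seen. So were other uncalled genes named for their change or its direction. Of 33 genes restricted to other tissues, 31 were measured and used as another silent reference; 1 fell, the casein gene Csn3. Alternatives were other probe set choices, filters on the dimmest 20% and 40% of genes, quantile normalisation, median centring, eBayes with trend and robust settings, the replicate number as a block, each array left out, both arrays numbered 1 left out, an adjusted threshold of 0.01, probe sets in place of genes, and other references. Same-numbered arrays did not deviate together (correlations of deviations −0.12, −0.22 and 0.08), and the numbers were not used to pair arrays.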

Additional observations from a re-analysis of the deposited data

How the results depend on the processing

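No alternative called any of the 10 genes or 19 probe sets, but some could hardly have done so. The 20% filter left 6 of the genes in the test and the 40% filter only Mitf. A threshold of 0.01 can call nothing that 0.05 did not, and quantile normalisation repeats a step of RMA. Other probe set choices leave the values of Dct, Pmel, Mlana, Oca2 and Gpr143 unchanged, since each has 1 probe set. Mitf kept its negative sign throughout. The count of called genes over the whole table (886) was 303 with the replicate block, 128 at an adjusted threshold of 0.01, 3649 without both arrays numbered 1 and between 118 (without − dox 3) and 1650 (without + dox 1) with 1 array left out. The block cost Birc7 (adjusted p = 0.0771), Diaph1 (0.0889), Edn1 (0.0579), Bace2 (0.0539), Ap1s2 (0.0702) and Mbp (0.0737) their calls.

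The number of the 10 genes above the silent reference in all − dox arrays, 2, was 1 with the 99th percentile of olfactory receptors or the array median, 3 when 1 of 3 arrays sufficed (Slc45a2 joined) and 0 with the 95th percentile of genes restricted to other tissues. In + dox arrays the values were 2, 1, 1, 2 and 0. That last reference lay at 6.14 to 8.16. It held Csn3 (7.70 to 9.30 in − dox arrays) and Ttn (9.09 to 10.94 in − dox arrays). Of its 31 genes, 9 were above the olfactory receptor reference in all − dox arrays.

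Genes with changes near 0 turned sign. Without both arrays numbered 1 the changes were −0.045 for Oca2, −0.04 for Pmel, 0.02 for Tyr, −0.11 for Tyrp1, −0.11 for Pax3 and 0.00 for Sox10. With the mean of all probe sets Tyr had 0.033, Lrat 0.037 and Pax3 −0.0011, and with the most variable probe set Tyr had 0.18, Lrat 0.15 and Sox10 −0.0067. With 1 array left out the changes ran from −0.017 to 0.18 for Dct, −0.088 to 0.082 for Gpr143, −0.025 to 0.12 for Mlana, −0.065 to 0.16 for Oca2, −0.018 to 0.067 for Pmel, −0.17 to 0.0083 for Slc45a2, −0.14 to 0.12 for Tyr, −0.0083 to 0.20 for Tyrp1, −0.13 to 0.072 for Lrat, −0.15 to 0.083 for Pax3 and −0.02 to 0.10 for Tfe3. The cause was not tested.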
